A study of Mus musculus with 8 samples.

Results

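Aminoacyl-tRNA synthetases are the enzymes that join each amino acid to its tRNA, and the members described here are the cytosolic and mitochondrial synthetases measured in neonatal mouse ventricle. Members were chosen by gene symbol, which gave 39 gene IDs under 38 symbols among the 37982 genes of the deposited table, 21 symbols cytosolic and 17 mitochondrial. A second ID that also carries the symbol Yars is listed at 0 in every group and was not tested, so 38 members have values. The symbols fixed the list, but the family was taken up because Lars2 changed, so the values of Lars2 are given as a description and count as no evidence. Tarsl2 was counted as cytosolic although its name ends in 2, because it encodes a second cytosolic threonyl-tRNA synthetase.

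The labels give 8 ventricle samples of C57BL/6 mice at postnatal day 7, with the atria removed: 3 triple mutants, 3 double mutants and 2 wild types. As known from the study, both mutant groups carried missense alleles of Mkl2 (a coactivator of serum response factor) and Myh7 (a slow myosin heavy chain), and only the triple mutants had a further allele, of the cardiac homeodomain factor Nkx2-5. Sex is not in the labels used here, nor is whether a sample is 1 pup. The values are FPKM (fragments scaled to transcript length and library size), 1 per gene and group, made by the authors from all libraries of the group they entered, so no spread between samples can be given and the depth is unknown.

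In the cytosol the synthetases charge tRNAs for translation of nuclear messages, and several of them sit together in a large multi-synthetase complex held by scaffold proteins. A separate set, encoded in the nucleus and imported, charges the tRNAs of the mitochondrial genome, whose messages encode core subunits of the respiratory chain. Inherited defects of mitochondrial synthetases in humans include cardiomyopathy among their forms. Many cytosolic synthetase genes are known targets of Atf4, the transcription factor of the amino acid response, which binds composite elements of the form TGATGNAA.

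Promoter sequences are shown first, so that the members that hold this element can be seen beside Lars2. RefSeq promoter windows of 300 bases (250 before the transcription start and 50 from it, build GRCm38.p6) were matched for 28 of 38 members. No window was matched for the other 10, among them Cars, Hars, Lars, Nars, Rars, Vars, Wars, Hars2 and Pars2. The element TGATGNAA, searched on both strands, was in the window of 5 of 14 matched cytosolic genes and 0 of 14 matched mitochondrial genes. It was in 3.97% of all 32851 windows of that length, and in 4.51% of the 27025 genes that these windows belong to. The stricter form TGATGCAA, which is contained in the first, was in 4 of 14 cytosolic genes and 0 of 14 mitochondrial genes. It was in 0.895% of all windows and 1.03% of all genes with a window. Matches are printed on the strand of the gene with 10 bases on each side, and capitals mark the element or its reverse complement.
Aars, chr8:111033841-111033868, plus strand: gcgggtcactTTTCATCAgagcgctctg
Gars, chr6:55037961-55037988, plus strand: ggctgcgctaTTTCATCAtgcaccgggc
Iars, chr13:49682127-49682154, plus strand: actgtcagtaTTGCATCAcctccagacg
Tars, chr15:11399656-11399683, minus strand: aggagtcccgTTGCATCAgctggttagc
Yars, chr4:129189896-129189923, plus strand: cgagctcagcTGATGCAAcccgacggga

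The window of Lars2 is printed whole because Lars2 is the member that changed, and capitals mark its first 50 transcribed bases. It held neither form of the element, which says only that these letters are not in this window.
Lars2, chr9:123366677-123366976, plus strand: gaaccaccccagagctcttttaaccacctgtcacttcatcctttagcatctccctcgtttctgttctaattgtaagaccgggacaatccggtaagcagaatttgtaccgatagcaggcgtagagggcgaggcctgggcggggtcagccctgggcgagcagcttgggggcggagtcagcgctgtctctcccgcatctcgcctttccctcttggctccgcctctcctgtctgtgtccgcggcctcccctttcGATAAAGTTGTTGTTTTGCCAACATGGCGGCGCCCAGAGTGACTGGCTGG

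Lars2 (ENSMUSG00000035202, mm9 chr9:123276058-123371782, the only gene listed at that locus) encodes mitochondrial leucyl-tRNA synthetase. Its FPKM was 92.8 in triple mutants, 12.0 in double mutants and 22.2 in wild types. It was thus highest in the triple mutant and lowest in the double mutant, with the wild type between them. The triple mutant level was 4.18-fold that of the wild type and 7.73-fold that of the double mutant, while the double mutant level was 1.85-fold lower than the wild type. Among the 38 members it ranked first in triple mutants, 16th in double mutants and 6th in wild types. It made up 17.1% of the summed FPKM of the family in triple mutants, 2.78% in double mutants and 4.81% in wild types. In bulk tissue, a change in the number of cells of a type and a change in RNA per cell cannot be told apart.

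**Figure D1:**
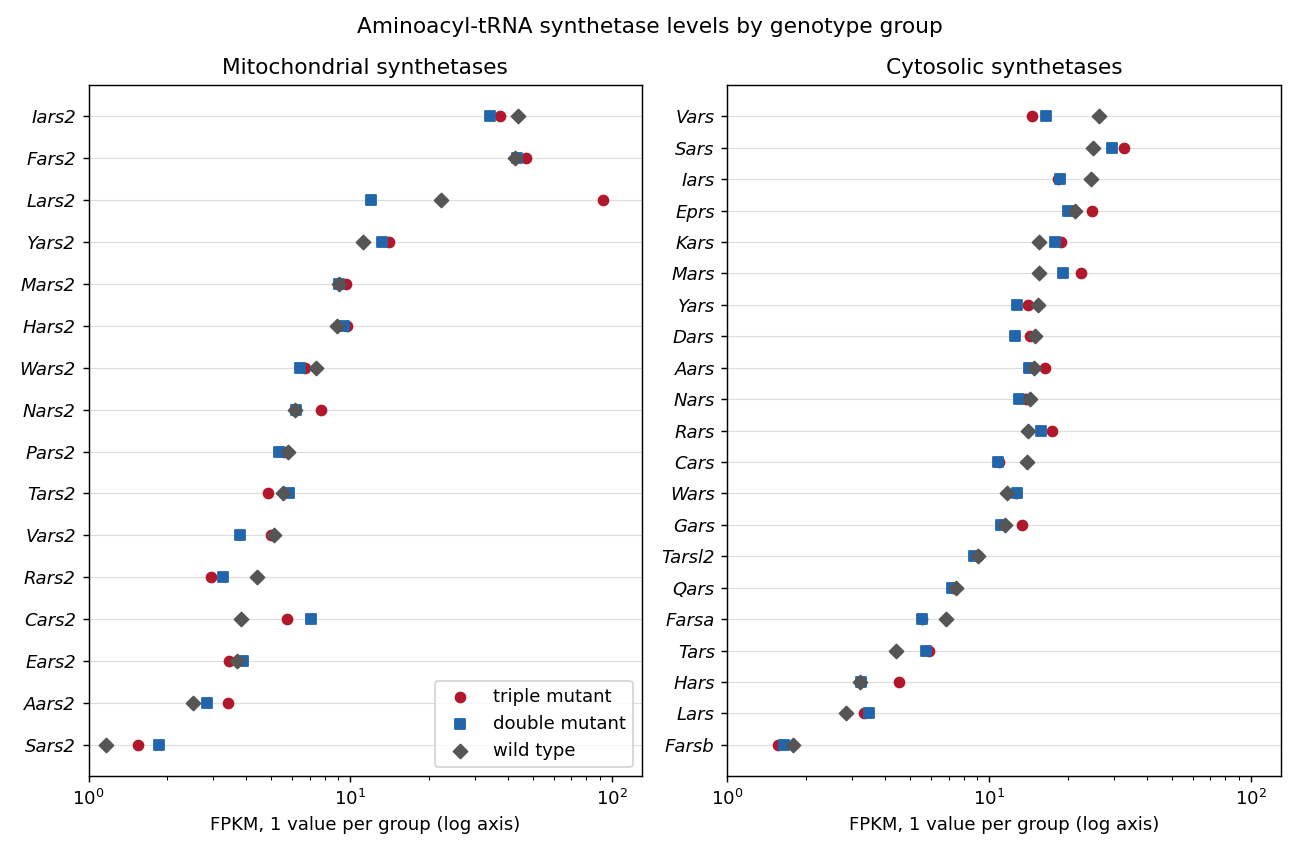
FPKM of 37 of the 38 measured synthetases (log axis), 1 point per genotype group, with mitochondrial members on the left and cytosolic members on the right, ordered by the wild type level. The 3 points of most members lie close together, whereas those of Lars2 lie at 92.8 in the triple mutant, 12.0 in the double mutant and 22.2 in the wild type.

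The comparison of triple mutants with wild types asks which genes differ in the hearts that model the disease, and here whether the rise of Lars2 was shared by its family. Of the other 37 members, none was called at a q-value under 0.05 by Cuffdiff, the program behind the authors' deposited table. Across all 12986 genes tested 1.52% were called, so a count of 0 among 37 lies near that share and does not set these members apart from other genes. At an unadjusted p under 0.05, 2 of the 37 passed, against 12.1% of all genes tested, and at the authors' own q threshold of 0.1 none did, against 2.75%. Their log2 fold changes ran from -0.85 for Vars to 0.58 for Cars2, with a median of 0.08, beside -0.00 for all genes tested. Of the 37, 20 were above 0 and 17 below.

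None of the 37 passed a 2-fold difference in this comparison, while 3.97% of all genes tested did. Of the error scales that the deposited score and p-value imply, the wider one, the log2 fold change divided by the score, had a median of 0.44 among these members and a range of 0.24 to 0.98. For Lars2, whose log2 fold change was 2.06, the same quotient was 0.39. Its Cuffdiff p-value is the lowest deposited and lies above what a normal score would give. For Lars2 in this comparison, the quotient is thus the narrower scale.

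Of the mitochondrial members, Cars2 (cysteinyl, mm9 chr8:11514021-11550771) had the highest fold change after Lars2, at 5.76 in triple mutants against 3.84 in wild types (q = 0.48 in the authors' deposited table). Aars2 (alanyl, mm9 chr17:45643790-45657791) was at 3.41 in triple mutants and 2.501 in wild types, and is 1 of the 2 members under an unadjusted p of 0.05 (q = 0.352 in the authors' deposited table). Rars2 (arginyl, mm9 chr4:34562206-34607416) had the lowest fold change, at 2.94 in triple mutants against 4.42 in wild types (q = 0.655 in the authors' deposited table). All 3 lie at low levels. Cars, the cytosolic partner of Cars2, stood at 10.9 in triple mutants and 14.0 in wild types, and Rars, the partner of Rars2, at 17.4 and 14.1 in the same groups (the locus of Cars is shared). In both pairs the mitochondrial and the cytosolic difference had opposite signs, and none of the 4 passed the threshold. Apart from Lars2, the most abundant mitochondrial members were Fars2 and Iars2. Fars2 (phenylalanyl) stood at 47.2 in triple mutants and 42.8 in wild types, and Iars2 (isoleucyl, in a locus shared with Rab3gap2) at 37.3 and 43.9 in the same groups. Over the 16 mitochondrial members other than Lars2, the median log2 fold change was 0.02, with 8 above 0 and 8 below.

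Among the cytosolic members, Mars (methionyl) had 22.4 FPKM in triple mutants against 15.5 in wild types (q = 0.641 in the authors' deposited table), but its locus is shared with Ddit3. Hars (histidyl) had 4.53 in triple mutants and 3.21 in wild types (q = 0.526 in the authors' deposited table), in a locus it shares with Hars2. Tars (threonyl, mm9 chr15:11313418-11329413) had 5.92 in triple mutants and 4.40 in wild types and is the other member under an unadjusted p of 0.05 (q = 0.244 in the authors' deposited table). On the side of lower values, Vars (valyl, mm9 chr17:35133681-35153267) had 14.6 in triple mutants against 26.4 in wild types, in a locus shared with another gene (q = 0.582 in the authors' deposited table). Iars (isoleucyl) followed with 18.3 in triple mutants against 24.6 in wild types (q = 0.695 in the authors' deposited table), in a locus shared with small nucleolar RNAs. The median over the 21 cytosolic members was 0.12 on the log2 scale, with 12 above 0 and 9 below.

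**Figure D2:**
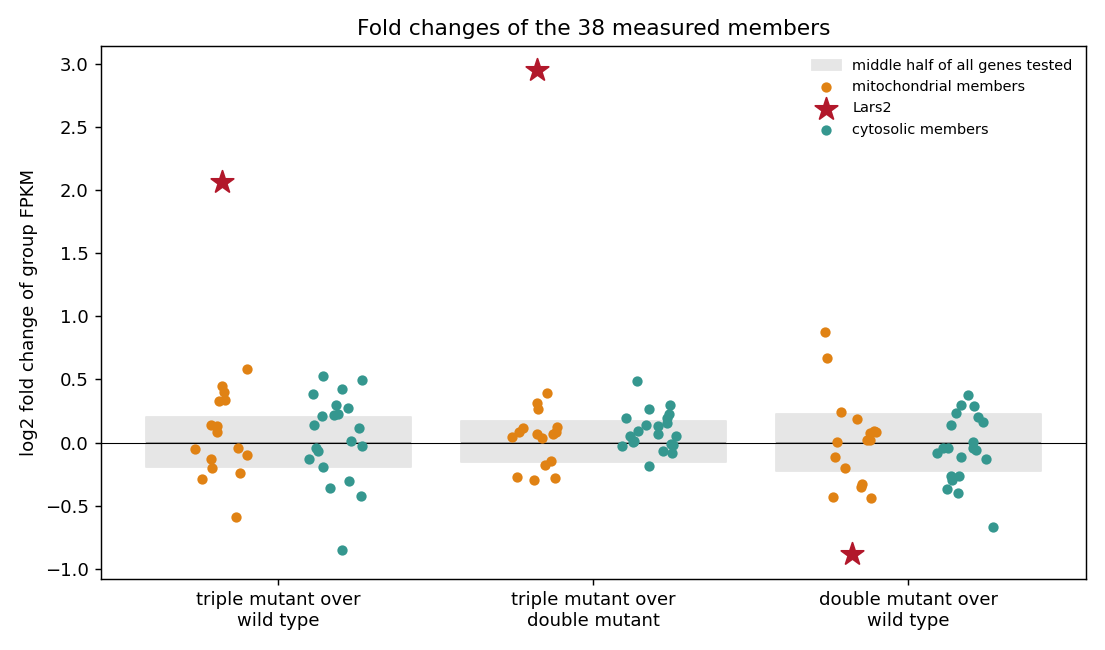
Log2 fold changes of group FPKM for the 38 measured members in the 3 comparisons, with mitochondrial members in orange, cytosolic members in teal, Lars2 as a star and the interquartile range of all genes tested as a grey band. Lars2 lies at 2.06, 2.95 and -0.89, while the other members lie between -0.85 and 0.88.

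The comparison of triple with double mutants asks what changes when the Nkx2-5 allele is present. These groups also differed in the sex-linked RNA Xist, as given below, and the allele and that difference cannot be told apart here. Lars2 stood at 92.8 in triple mutants against 12.0 in double mutants, a log2 fold change of 2.95. Of the other 37 members none was called by Cuffdiff in the authors' deposited table, beside 1.25% of 12786 genes tested. One member, Eprs, had an unadjusted p under 0.05 among the 37, where 8.45% of all genes tested did. At a q-value under 0.1 none of the 37 passed, against 1.98% of all genes, and none passed a 2-fold difference, against 2.28%. The log2 fold changes of the 37 ran from -0.29 to 0.49, with a median of 0.07 beside -0.00 for all genes tested, and 26 were above 0.

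Eprs, the bifunctional enzyme that charges the glutamate and proline tRNAs of the cytosol (mm9 chr1:187186974-187252234), had 24.7 FPKM in triple mutants and 20.1 in double mutants (q = 0.34 in the authors' deposited table). The largest positive value after Lars2 was that of Hars, at 4.53 in triple mutants and 3.23 in double mutants (q = 0.647 in the authors' deposited table). Vars2, the mitochondrial valyl enzyme, stood at 4.98 in triple mutants and 3.80 in double mutants (q = 0.651 in the authors' deposited table). Nars2 (the mitochondrial asparaginyl enzyme, whose locus is shared) had 7.73 FPKM in triple mutants and 6.22 in double mutants (q = 0.871 in the authors' deposited table). The lowest values belonged to 3 mitochondrial enzymes. Cars2 had 5.76 in triple mutants and 7.06 in double mutants, Tars2 (threonyl) 4.83 in triple and 5.86 in double mutants, and Sars2 (seryl) 1.55 in triple and 1.87 in double mutants. Their q-values in the authors' deposited table were 0.833 for Cars2, 0.642 for Tars2 and 0.859 for Sars2.

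Double mutants against wild types form the remaining comparison, which the 3 groups imply. Lars2 was lower in double mutants here, at 12.0 against 22.2 in wild types, a log2 fold change of -0.89. None of the other 37 members was called by Cuffdiff in the authors' deposited table, beside 2.65% of 13034 genes tested, and 3 had an unadjusted p under 0.05, beside 16.3% of all genes tested. None of the 37 passed a q-value of 0.1 or a 2-fold difference, which 4.41% and 4.62% of all genes tested did. Those with an unadjusted p under 0.05 were Cars2, Tars and Iars2. Cars2 had 7.06 in double mutants and 3.84 in wild types (q = 0.19 in the authors' deposited table). Tars had 5.72 in double mutants and 4.40 in wild types (q = 0.349 in the authors' deposited table). Iars2 had 34.4 in double mutants and 43.9 in wild types (q = 0.402 in the authors' deposited table).

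The lowest fold changes after Lars2 were those of Vars, Rars2 and Vars2. Vars had 16.6 in double mutants against 26.4 in wild types, Rars2 had 3.26 against 4.42 and Vars2 had 3.80 against 5.13 in the same groups. Sars2 had 1.87 in double mutants and 1.17 in wild types. The q-values of these 4 members in the authors' deposited table were 0.731 for Vars, 0.753 for Rars2, 0.599 for Vars2 and 0.413 for Sars2. The median of the 37 was -0.04 on the log2 scale, with 18 above 0 and 19 below. The 3 comparisons share groups, so they are not independent of each other.

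Lars, the cytosolic leucyl-tRNA synthetase and a sensor of leucine for growth signalling, charges the same amino acid as Lars2. It had 3.31 FPKM in triple mutants, 3.47 in double mutants and 2.83 in wild types, in a locus shared with a ribosomal protein pseudogene. No difference among these 3 levels passed the threshold. The authors' deposited table gives Lars a q-value of 0.709 between triple mutants and wild types, 0.956 between the mutants, and 0.543 between double mutants and wild types. The ratio of Lars2 to Lars was therefore 28.02 in triple mutants, 3.46 in double mutants and 7.83 in wild types. For the 16 other pairs of a mitochondrial and a cytosolic enzyme for the same amino acid, the log2 change of that ratio lay between -0.89 (Rars2 to Rars) and 0.94 (Cars2 to Cars) when triple mutants were set against wild types. Against double mutants it lay between -0.48 and 0.57. For Lars2 to Lars the same quantities were 1.84 and 3.02. Between double mutants and wild types it was -1.18 for Lars2 to Lars, while the other pairs ran from -0.60 (Rars2 to Rars) to 1.24 (Cars2 to Cars), so the Cars2 pair differed by as much in the other direction.

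**Figure D3:**
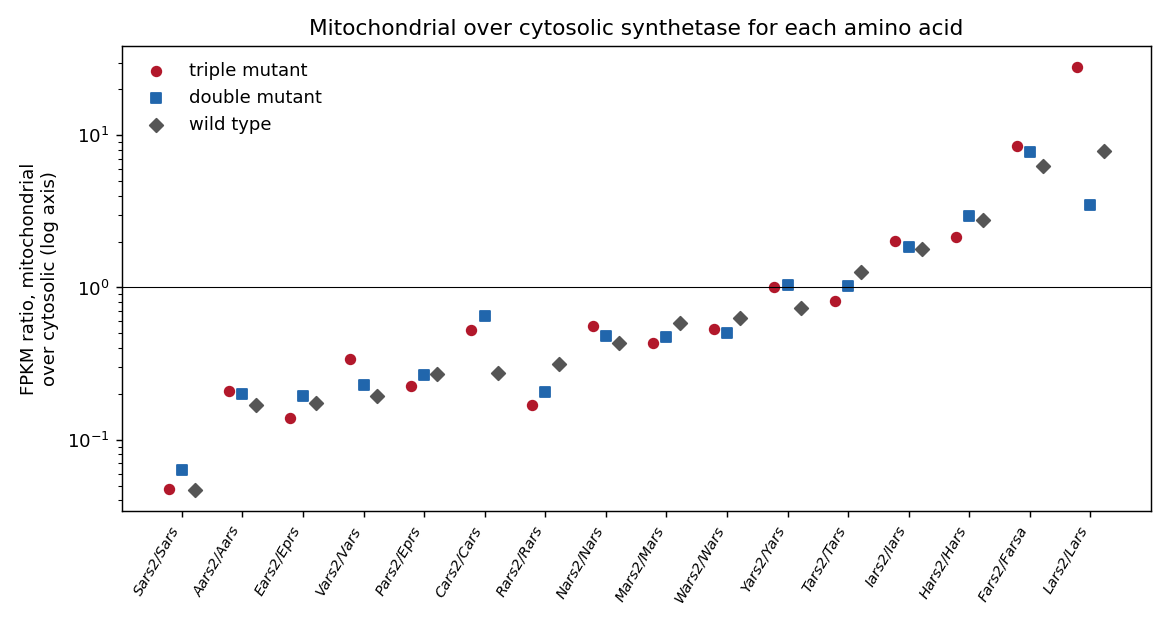
Ratio of mitochondrial to cytosolic synthetase FPKM for 16 of the 17 amino acid pairs (log axis), 1 point per genotype group, ordered by the wild type ratio. The ratio of Lars2 to Lars is 28.02 in triple mutants, 3.46 in double mutants and 7.83 in wild types, while the points of the other pairs lie closer together.

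Most mitochondrial enzymes stood below their cytosolic partner, and the ratio was above 1 in 4 of 17 pairs in triple mutants, 6 of 17 in double mutants and 5 of 17 in wild types. Fars2 stood above Farsa, the catalytic subunit of the cytosolic phenylalanyl enzyme, by 8.52 times in triple mutants, 7.80 times in double mutants and 6.26 times in wild types. Cytosolic members made up 62.7% of the family's summed FPKM without Lars2 in triple mutants, 62.1% in double mutants and 62.5% in wild types. Without Lars2 the family summed to 449 FPKM in triple mutants, 420 in double mutants and 440 in wild types.

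Gars and Kars supply both compartments from 1 gene each; they have no mitochondrial partner. Gars (glycyl) had 13.4 FPKM in triple mutants, 11.1 in double mutants and 11.5 in wild types. Kars (lysyl) had 18.8 in triple mutants, 17.9 in double mutants and 15.6 in wild types. Neither was called in any comparison, and their lowest q-value in the authors' deposited table was 0.451, for Kars between triple mutants and wild types.

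The 8 synthetases of the multi-synthetase complex (Dars, Eprs, Iars, Kars, Lars, Mars, Qars and Rars) had a median log2 fold change of 0.22 between triple mutants and wild types, with 5 of 8 above 0 and 0 called, beside 1.52% of all genes tested. That median was 0.10 between the mutants, with 6 of 8 above 0, and 0.06 between double mutants and wild types, with 4 of 8 above 0; none of the 8 was called in either, beside 1.25% and 2.65% of all genes tested. An unadjusted p under 0.05 was reached by Eprs between the mutants, where 8.45% of all genes tested reached it, and by none of the 8 in the other comparisons. Qars, the glutaminyl enzyme, stood at 7.31 in triple mutants, 7.23 in double mutants and 7.46 in wild types. The 3 genes of the scaffold proteins of the complex were not called in any comparison either, beside the same shares of all genes tested. Aimp1 had 10.1 in triple mutants against 7.21 in wild types (q = 0.19 in the authors' deposited table). Aimp2 had 18.1 in triple mutants against 12.0 in wild types (q = 0.48 in the authors' deposited table). The third scaffold gene, Eef1e1, had 8.31 in triple mutants against 6.44 in wild types (q = 0.531 in the authors' deposited table). In that comparison 1 of the 3 scaffold genes had an unadjusted p under 0.05, beside 12.1% of all genes tested. Between double mutants and wild types 1 of the 3 did, beside 16.3%, and between the mutants 0 did, beside 8.45%.

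Further members are given by their levels, none of which was called different. Sars (seryl, shared locus) was the most abundant cytosolic member in both mutants, at 32.7 in triple mutants, 29.4 in double mutants and 25.05 in wild types. Nars (asparaginyl) had 13.9 in triple mutants, 13.0 in double mutants and 14.3 in wild types. Aars (alanyl, shared locus) had 16.4 in triple mutants, 14.3 in double mutants and 14.9 in wild types. Dars (aspartyl) had 14.3 in triple mutants, 12.5 in double mutants and 15.0 in wild types. Yars (tyrosyl, shared locus) had 14.1 in triple mutants, 12.8 in double mutants and 15.4 in wild types. Both were lowest in double mutants. Wars (tryptophanyl, shared locus) had 12.6 in triple mutants, 12.8 in double mutants and 11.7 in wild types. Farsa had 5.53 in triple mutants, 5.57 in double mutants and 6.84 in wild types. Farsb, the other subunit of the cytosolic phenylalanyl enzyme, was lowest of the cytosolic members in every group, at 1.55 in triple mutants, 1.65 in double mutants and 1.78 in wild types. Tarsl2 (shared locus) had 9.10 in triple mutants, 8.77 in double mutants and 9.05 in wild types.

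Among the mitochondrial members not yet given, Yars2 (tyrosyl) had 14.1 FPKM in triple mutants, 13.3 in double mutants and 11.2 in wild types. Hars2 (histidyl, in the locus shared with Hars) had 9.75 in triple mutants, 9.50 in double mutants and 8.93 in wild types. Apart from Lars2, these were the most abundant mitochondrial members after Fars2 and Iars2 in triple and double mutants. Mars2 (methionyl) had 9.61 in triple mutants, 9.09 in double mutants and 9.06 in wild types. Wars2 (tryptophanyl) had 6.72 in triple mutants, 6.40 in double mutants and 7.37 in wild types. Pars2, the mitochondrial prolyl enzyme, had 5.57 in triple mutants, 5.32 in double mutants and 5.77 in wild types. The lowest levels include Ears2 (glutamyl, shared locus), at 3.45 in triple mutants, 3.91 in double mutants and 3.70 in wild types.

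The order of the Lars2 levels, lowest in double and highest in triple mutants, was also that of 4 other members (Aars, Eprs, Gars and Tarsl2), beside 13.0% of the 12405 genes tested in all 3 comparisons.

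None of the 4 nearest expressed loci beside Lars2 on chromosome 9 differed between groups at the threshold. Of all genes tested, 1.52% did between triple mutants and wild types, 1.25% between the mutants and 2.65% between double mutants and wild types. Having none among 4 lies near those shares and does not set these loci apart from other genes. Limd1, 16037 bases after it, had 21.2 FPKM in triple mutants, 21.3 in double mutants and 26.1 in wild types. Sacm1l, the next expressed locus, had 15.9 in triple mutants, 16.9 in double mutants and 18.8 in wild types. Before Lars2, Tmem158 had 6.57 in triple mutants, 6.35 in double mutants and 6.75 in wild types, and Clec3b had 21.8, 29.5 and 20.5 in the same order of groups. The lowest q-value of these 4 genes in the authors' deposited table was 0.134, for Clec3b between double mutants and wild types.

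**Figure D4:**
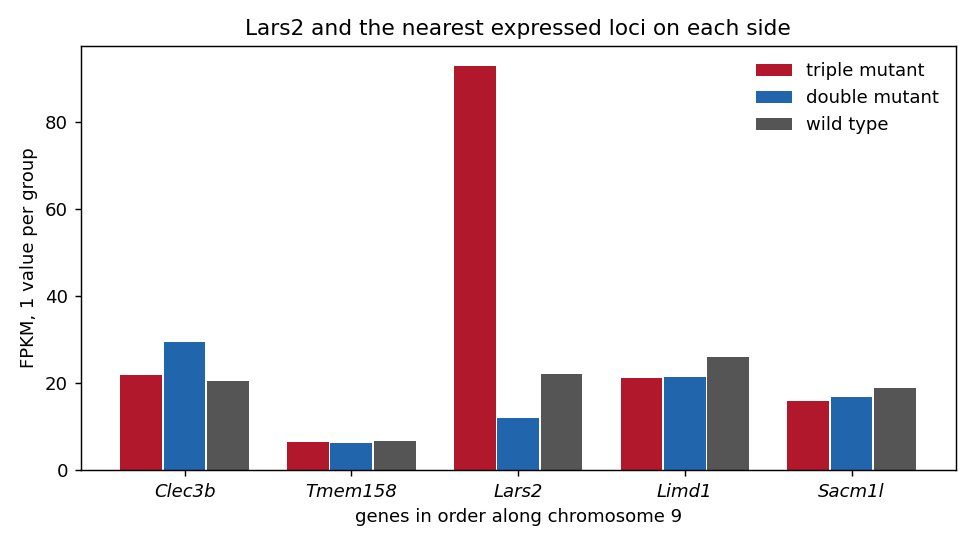
FPKM of Lars2 and of the 2 nearest loci with an FPKM of at least 1 on each side, in their order along chromosome 9, with 1 bar per genotype group. Lars2 reaches 92.8 in triple mutants, while no neighbour differs as much between groups.

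Several measured facts bear on how the Lars2 value is read. The library was made from total RNA, and the annotated messenger of Lars2 (GENCODE M21) holds in its 3' UTR a stretch of 72 bases that matches the transcript Gm15564 at 98.6% identity. Gm15564 was listed at 0.241 FPKM in triple mutants, 0.258 in double mutants and 0 in wild types, and was not tested. A stretch of 50 bases in the same 3' UTR matches the transcript AA474408 at 96% identity. AA474408 had 1.63 FPKM in triple mutants, 1.98 in double mutants and 1.87 in wild types. Whether either match is to ribosomal RNA was not tested. AY036118, a locus that in GENCODE M21 overlaps a gene with ribosomal RNA sequence, had 3341 FPKM in triple mutants, 3905 in double mutants and 4377 in wild types. Its order of groups, lowest in triple mutants and highest in wild types, was not tested against that of Lars2. AY036118 was not called: the authors' deposited table gives it a q-value of 0.358 between triple mutants and wild types and 0.725 between the mutants. Its unadjusted p was under 0.05 between triple mutants and wild types, where 12.1% of all genes tested reached that. Rn5s, mt-Rnr1 and mt-Rnr2 are listed at 0 as failed estimates. The part of ribosomal RNA reads in the Lars2 value was not tested.

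Sex-linked genes also stood at unequal levels. Xist, the X inactivation RNA, had 88.2 FPKM in triple mutants and 1.21 in double mutants (q = 0.0066 in the authors' deposited table). Its wild type estimate failed from too many fragments and is written as 0, so that level is unknown. Ddx3y, a Y-linked gene, had 10.02 in triple mutants, 14.0 in double mutants and 4.82 in wild types, with a q-value of 0.0066 for either mutant group against wild types in the authors' deposited table. Their part in the Lars2 difference was not tested. The 13 markers of endothelial, fibroblast, immune, red blood and epicardial cells summed to 1035 FPKM in triple mutants, 1185 in double mutants and 1097 in wild types, with none at 0. Comparisons are in the order triple mutants over wild types, triple over double mutants, and double mutants over wild types. None of the 12 tested was called by Cuffdiff, beside 1.52%, 1.25% and 2.65% of all genes tested. An unadjusted p under 0.05 was reached by 2, 3 and 1 of the 12, beside 12.1%, 8.45% and 16.3% of all genes. Of the 12, the number above 0 was 3, 1 and 10. All 9 cardiomyocyte markers carry failed estimates from too many fragments in all 3 comparisons, so the tissue label was not checked against their levels.

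Of 13 mitochondrial translation factors none was called by Cuffdiff in any comparison, beside 1.52%, 1.25% and 2.65% of all genes tested in that order of comparisons. An unadjusted p under 0.05 was reached by 2, 0 and 2 of them, beside 12.1%, 8.45% and 16.3% of all genes tested. Their median log2 fold change was -0.16 between triple mutants and wild types and -0.02 between the mutants. Of 12 genes of tRNA proofreading and maturation none was called by Cuffdiff either, and 1, 3 and 3 had an unadjusted p under 0.05. These counts stand beside the same shares of all genes tested. The list had medians of 0.03 and 0.08 for triple mutants against wild types and against double mutants. All 22 tRNA genes of the mitochondrial genome, both leucine tRNAs included, are listed at 0 in every group, so the substrate of Lars2 was not measured.

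Atf4 had 119 FPKM in triple mutants, 108 in double mutants and 111 in wild types (lowest q = 0.807 in the authors' deposited table). Of 17 amino acid supply genes in its pathway that were tested between triple mutants and wild types, 1 was called, beside 1.52% of all genes tested, and 3 had an unadjusted p under 0.05, beside 12.1%. The called gene was Slc3a2, the heavy chain of amino acid exchangers, with 17.1 in triple mutants against 10.8 in wild types (q = 0.0066 in the authors' deposited table). The log2 fold changes of the list ran from -0.66 for Trib3, a pseudokinase, to 1.03 for Phgdh, the first enzyme of serine synthesis, with a median of -0.03 and 8 of 17 above 0. No gene of that list was called by Cuffdiff in the other 2 comparisons, where 1 (triple over double mutants) and 2 (double mutants over wild types) had an unadjusted p under 0.05, beside 8.45% and 16.3% of all genes tested. Of 5 cytosolic elongation factors tested, 1 was called between double mutants and wild types, beside 2.65% of all genes tested. That gene was Eif5a, at 162 against 116 (q = 0.0214 in the authors' deposited table), and 2 of the 7 listed carry failed estimates. None of the 5 was called between triple mutants and wild types or between the mutants, beside 1.52% and 1.25% of all genes tested. An unadjusted p under 0.05 was reached by 2 of the 5 in each comparison with wild types and by 0 between the mutants. All genes tested reached it at 12.1% (triple mutants) and 16.3% (double mutants) against wild types, and at 8.45% between the mutants.

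The 5 genes nearest to Lars2 in their pair of log2 fold changes (triple mutants over wild types and over double mutants), among 8536 genes at an FPKM of at least 5, were Taf12, U2, Diap3, Magoh and Ywhae. Taf12, a subunit of the general transcription factor TFIID, had 39.5 FPKM in triple mutants, 14.9 in double mutants and 13.9 in wild types. It lay 1.64 log2 units from Lars2, and the other 4 lay 2.27 to 2.45 units away. Each of the 5 had smaller log2 fold changes than Lars2 in both comparisons. Taf12, U2 and Diap3 were called in neither, Magoh only against wild types, and Ywhae in both. The 2 fold changes share the triple mutant value, and the measure says nothing of shared function.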

How the data were processed

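Total RNA libraries were made with a stranded kit after DNase treatment, per the labels' protocols. The submitters' processing notes name STAR 2.5.2, Cuffdiff 2.2.1, Cufflinks 2.2.1 and CASAVA 1.8, with mm9 as build; annotation and counting strand: not given in the sources used here. In their table the authors deposited FPKM per gene and group, log2 fold changes, test scores, p-values and q-values of 3 comparisons. The lowest p-value in the deposited file is 5e-05, so the lowest q-value is 0.0066, and many genes tie there. An estimate that failed from too many fragments is written as 0 (709 genes), and no member is among them. Loci start from 0 in the file, and 1 was added.

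From these, Python 3.11.15 with pandas 2.3.3 computed ratios, medians, ranks and counts, and blastn compared transcripts. A Benjamini-Hochberg adjustment across all tested rows of the table gave back the deposited q-values (largest difference 5.26e-07). The code of this adjustment was tested on simulated data. Calls use a threshold of 0.05 on the deposited q-values, while the authors' own mark falls at 0.1. The error scale is the log2 fold change over the deposited score. In 99.7% of tested rows the deposited p-value is lower than a normal score would give, so this scale is the wider in those rows. A locus is called shared when the file lists it for another gene (16 of 38 members).

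Members and lists were chosen with earlier results of these data known. Named members are the 3 largest rises and falls per comparison besides Lars2, those called, cytosolic partners, Lars, Kars and Gars. The values of 1 member and 1 promoter match are not reported here, though both are in the counts and medians. Others were named after their values were seen: the most abundant and least abundant members, those under an unadjusted p of 0.05, and complex members. The sources used here do not say which libraries the test took in or whether they are separate animals, so the p-values measure only the spread among the libraries entered, which may be technical.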

Additional observations from a re-analysis of the deposited data

How the results depend on the processing

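All 46 alternatives kept their result within its error or within 1.5 times its count. Several had little room to change it. The pseudocounts are small beside the Lars2 levels, and Lars2 passes the FPKM and shared-locus filters in every comparison. The log2 fold change of Lars2 ranged from 2.02 to 2.10 for triple mutant against wild type, from 2.85 to 2.9999 for triple against double mutant and from -0.90 to -0.83 for double mutant against wild type, over pseudocounts of 1 and 0.1 FPKM, equal sums and centring on all genes. The number of members called was 1 in each comparison, with q-values adjusted within the comparison, at the authors' threshold of 0.1, at an FPKM of at least 5 and without shared loci. That member was Lars2, whose Cuffdiff p-value is 5e-05 in each comparison, the lowest deposited. The count thus rests on the gene that led to the family and adds no evidence. The median of all 38 members ranged from 0.09 to 0.14, from 0.06 to 0.12 and from -0.05 to -0.04 in the same order of comparisons. Counting Tarsl2 as mitochondrial, an alternative chosen after seeing the data, gave a median of 0.01 in place of 0.02 for mitochondrial members between triple mutants and wild types. In triple mutants Lars2 was 9.66 times the median of the others, and 6.68 times that of those at an FPKM of at least 5, likewise chosen after seeing the data. No paired analysis was possible because the deposited table holds 1 value per gene and group, and for the same reason leaving out each replicate was not run. Whether 1 library carries the Lars2 value cannot be seen at this level.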

Other observations

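Lars2 is 1 of 3 genes called in all 3 comparisons, out of 12405 tested in each. The other two are Trappc1, a subunit of a vesicle tethering complex, with 22.01 FPKM in triple mutants, 36.6 in double mutants and 11.6 in wild types, and Zbtb16, a zinc finger transcription factor, with 7.88, 5.09 and 15.3 in the same order of groups. These 3 genes have different orders of the groups: the double mutant is lowest for Lars2 and Zbtb16 and highest for Trappc1. All 3 are named because they were called, with their values seen.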
